A study of Homo sapiens with 16 samples.

Results

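H69 is an established human small cell lung cancer line, and H69M is a second line that the labels name beside it without saying how it was obtained. The comparison described here is the polysomal RNA of H69M set against that of H69, in control cells of both lines. Each line carried a lentiviral non-targeting shRNA (shNTC), was labelled as wild type and otherwise untreated, and grew in RPMI 1640 with serum. The members are the 4 control polysomal libraries, 2 from H69M and 2 from H69, out of 16 libraries in 8 groups. The other groups are cytoplasmic RNA from control cells of each line, and both kinds of RNA from H69M and H69 cells with an shRNA against EIF6 (sheIF6). The labels do not say that a polysomal and a cytoplasmic library came from the same culture. The labels do not say whether a line is a clone or a pool, and they do not say that the 2 libraries of a group come from different cultures. The p-values thus describe the spread among these libraries, which may be technical. All 23100 gene names that passed a filter on low counts, of 56832 in the table, were compared.

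Polysomes are mRNAs loaded with several ribosomes, so RNA taken from the polysomal part of a sucrose gradient samples the messages being translated. Small cell lung cancer is a neuroendocrine tumour: its usual cells carry dense-core granules, express neuronal transcription factors and grow as floating clusters. The same tumours can hold a second, non-neuroendocrine state that adheres, expresses YAP1, the Notch effector HES1 and the neuronal repressor REST, and tolerates chemotherapy better. The study's title places these lines in work on EIF6, a factor that keeps the large ribosomal subunit from joining the small one, and on a drug-tolerant change of cell state.

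The 4 libraries held 42553901 and 47197218 counts in H69M, and 43827638 and 41828327 counts in H69. Replicates differed far more than counting allows, with a chi-square per degree of freedom of 224 in H69M and 114 in H69, and their log CPM correlated at 0.969 in H69M and 0.981 in H69. The H69M libraries were not equally free of H69 transcripts. A set of 101 H69 genes was chosen in the sheIF6 libraries of both kinds of RNA. Each had over 10 CPM in every H69 library and, in at least 1 H69M library, under 0.5% of the H69 mean. Their median level was 0.429% of that H69 mean in control polysomal H69M replicate 1 and 9.94% in replicate 2. The same genes stood at 0.174% and 2.15% in cytoplasmic RNA of control H69M replicates 1 and 2. In the other direction, 154 genes had over 10 CPM in every H69M sheIF6 library and no count in at least 1 H69 sheIF6 library. In the 2 control polysomal H69 libraries they stood at a median of 0% and 0.0483% of their mean H69M sheIF6 level. Whether H69M replicate 2 held cells or RNA of the H69 kind was not tested, and neuroendocrine lists and most of their named genes are therefore given with and without it. In bulk RNA, fewer cells of a type and less RNA per cell cannot be told apart.

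The markers of the labelled cell type separated the lines. All 9 markers of non-neuroendocrine small cell lung cancer were higher in H69M, against 18.4% of all genes tested. Of the 10 neuroendocrine markers 5 were lower in H69M and none higher, against 15.6% of all genes lower. Without H69M replicate 1 the count was 3 lower, and without the H69M libraries numbered 2 of every group it was 8 lower. NCAM1, the adhesion molecule used as a diagnostic marker, had 197 and 205 CPM in H69M, against 232 and 237 CPM in H69. UCHL1, a neuronal ubiquitin hydrolase, had 819.9 and 684 CPM in H69M, against 947 and 1187 CPM in H69. The H69M libraries lay below both H69 libraries for both genes, by less than the test could call (log2 -0.22, adjusted p = 0.539, and log2 -0.50, adjusted p = 0.121). Of 2 blood markers tested 1 was lower, and the leukocyte marker PTPRC had 0.101 and 0.101 CPM in H69M, against 0.184 and 0.866 CPM in H69. Of 4 endothelial markers 1 was higher and none lower, with a median of 3.03 and a sum of 19.96 and 13.7 CPM in H69M, against 0.526 and 4.16 CPM in H69. The called one, VWF, which codes for von Willebrand factor, had 16.98 and 12.9 CPM in H69M, against 0.316 and 3.39 CPM in H69 (log2 3.01, adjusted p = 0.0235), a call lost without H69 replicate 1 (adjusted p = 0.0825) or H69M replicate 1 (0.076). PECAM1 had 0.0757 and 0.252 CPM in H69M, against 0.210 and 0.544 CPM in H69 (adjusted p = 0.555). Fibroblast markers are given below with the matrix genes.

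The polysomal pools of the lines differed in part of their messages. In edgeR's quasi-likelihood test with Benjamini-Hochberg adjustment, at a limit of 0.05, 4251 genes were higher and 3608 lower in H69M, and the median of all genes was 0.02 on the log2 scale. The genes called higher took 37.1% and 39.2% of all counts in the H69M libraries, against 8.79% and 8.76% in the H69 libraries. Those called lower took 14.6% and 14.9% in H69M, against 38.3% and 39.0% in H69. Genes not called took 48.3% and 45.85% of the counts in H69M, against 52.9% and 52.2% in H69. Both H69M libraries lay beyond both H69 libraries for 4249 of the genes called higher and 3604 of those called lower. The calls were made on these same libraries, so neither the shares of counts nor the lack of overlap is separate evidence for them. The share over all genes tested is not given here. Large differences were mostly gains, on a fitted scale that depends on the prior count where a gene is at 0 in 1 line: 1631 genes were more than 4 log2 units higher in H69M and 619 more than 4 lower, and beyond 8 log2 units the counts were 576 and 76. At a mean over 10 CPM, 91 genes of H69M had no count in either H69 library, and 3 genes of H69 had none in either H69M library. H69M replicate 2 kept a median of 9.94% of the H69 level of the 101 H69 genes above. That level limits how far an H69M mean could fall, so large gains and large losses were not measured on equal terms. Among protein-coding genes 3448 of 15208 (22.7%) were higher and 2946 (19.4%) lower, while of 233 processed pseudogenes 9 were higher and 14 lower.

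**Figure D1:**
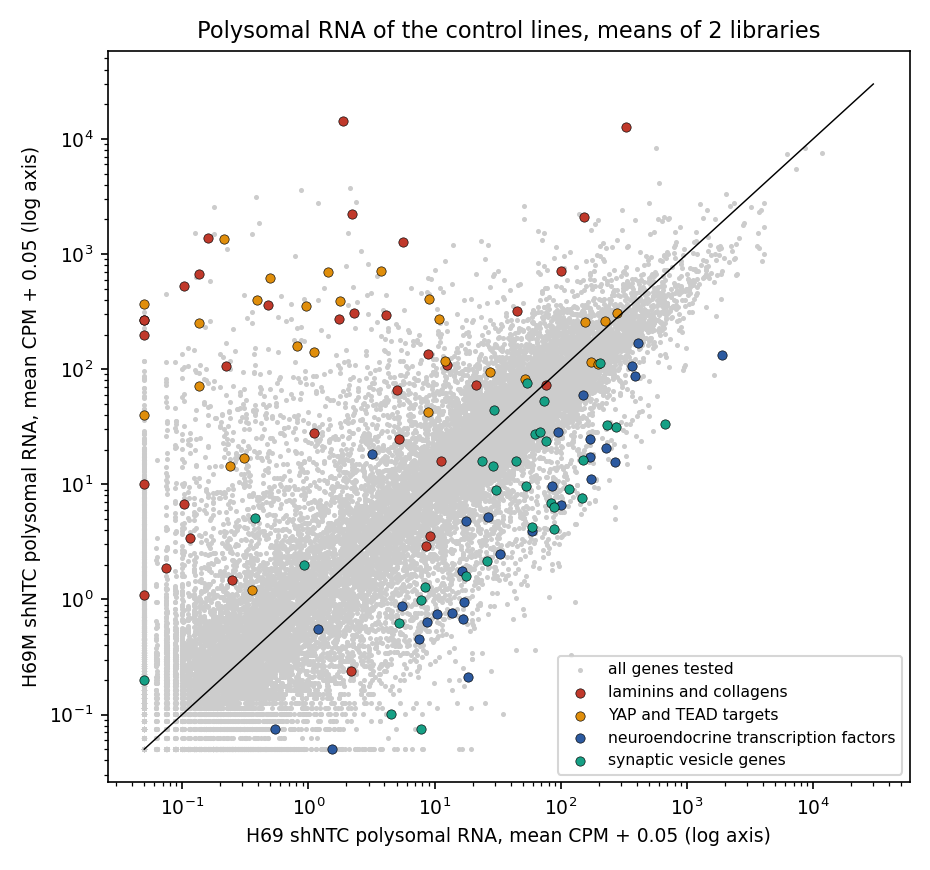
Mean polysomal level of each gene tested in control H69M (vertical axis) and control H69 (horizontal axis), as CPM + 0.05 on log axes, n = 2 libraries each. Laminins and collagens and the YAP and TEAD targets lie mostly above the diagonal, where 4251 genes were called higher in H69M, and neuroendocrine transcription factors and synaptic genes mostly below it.

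**Figure D2:**
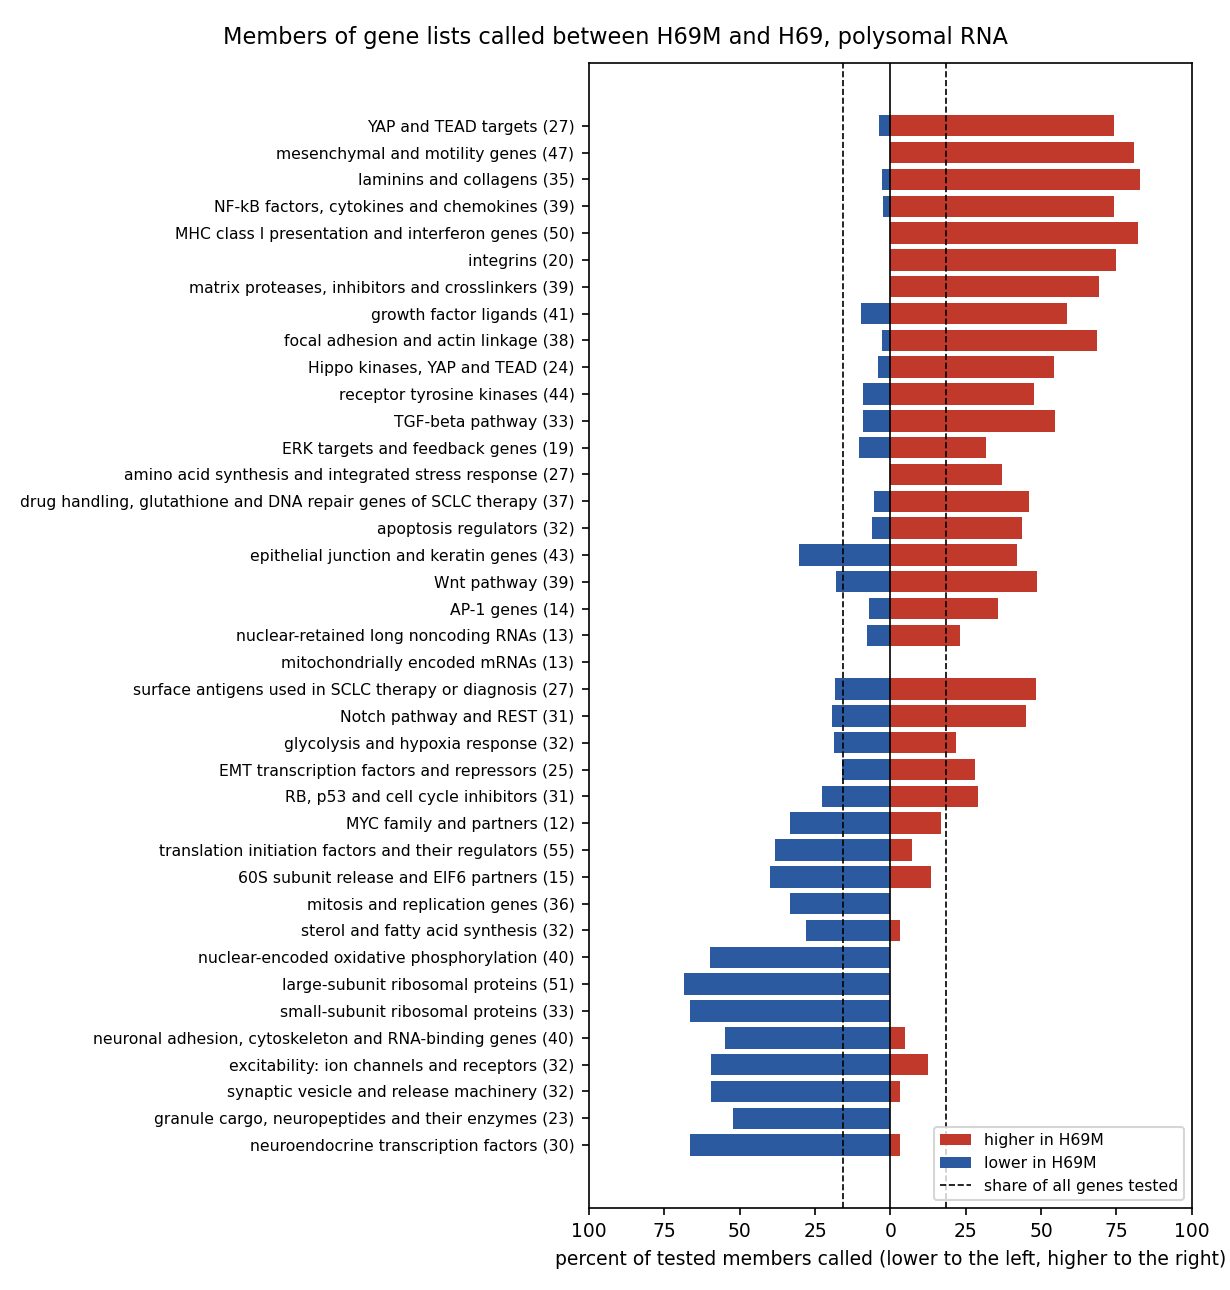
Share of the tested members of each gene list called higher (right) or lower (left) in H69M, in percent, with the number tested in brackets. Dashed lines mark the shares of all genes tested, 18.4% higher and 15.6% lower.

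The genes with the largest folds coded mostly for matrix and contractile proteins. KRT17, a basal keratin (chromosome 17, 41619441 to 41624842, minus strand), had 1415 and 1635 CPM in H69M, against 0.0526 and 0.0990 CPM in H69 (20119-fold, log2 14.24 (SE 0.56), adjusted p = 2.26e-07). FBN1, the microfibril protein fibrillin, had 1874 and 3271 CPM in H69M, against 0.158 and 0.0990 CPM in H69 (20034-fold, log2 14.27 (SE 0.77), adjusted p = 2.57e-07). ACTA2, smooth muscle actin, had 690.0 and 2285 CPM in H69M, against 0.158 and 0.0990 CPM in H69 (11584-fold, log2 13.48 (SE 0.95), adjusted p = 1.77e-06). For each of the 3 genes, the lower H69M library stood far above the higher H69 library. The ranking by fold admitted only genes whose groups did not overlap, so a lack of overlap in it is no separate result. CNN1, which codes for the smooth muscle protein calponin, had 2 raw counts in all in H69 and 203 and 689.8 CPM in H69M, a ratio of 17518.4 with a 95% counting interval of 4849.2 to 144660.5. CD109, a surface protein that binds TGF-beta, had 297 and 327 CPM in H69M, against no count in either H69 library, which is at least 8154-fold higher when the H69 group is set at 3 counts (adjusted p = 0.000187). The other genes among the 12 largest folds in the ranking were COL4A2, COL6A2, IGFBP3, SPARC, CTGF, CALD1 and COL1A1. They are described below with their groups.

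By difference in CPM, which also scales with message length, collagen I led. COL1A1, one of its chains (chromosome 17, 50183289 to 50201632, minus strand), had 9439 and 18955 CPM in H69M, against 2.55 and 1.09 CPM in H69 (log2 12.93 (SE 0.84), adjusted p = 6.58e-07). COL1A2, the other chain, had 7426 and 17722 CPM in H69M, against 508 and 147 CPM in H69 (log2 5.26 (SE 0.79), adjusted p = 0.000376). The H69 level of COL1A2 was well above 0, while that of COL1A1 was close to 0. FLNA, an actin crosslinker, had 7129.6 and 9618 CPM in H69M, against 644 and 489 CPM in H69, and FBN2, a second fibrillin, had 2912 and 4649 CPM in H69M, against 1.81 and 2.38 CPM in H69. VIM, the mesenchymal intermediate filament, had 3395 and 3806 CPM in H69M, against 0 and 1.66 CPM in H69, and AHNAK, a giant scaffold protein, had 2773 and 2882 CPM in H69M, against 1.37 and 3.29 CPM in H69. Every one of these 6 genes had both H69M libraries above both H69 libraries, by 14.8-fold of the means for FLNA and 1214-fold for AHNAK. MYH9, the non-muscle myosin heavy chain, was 6.92-fold higher (log2 2.79), and APLP2, an amyloid precursor relative, 5.50-fold (log2 2.46).

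Laminins and collagens were mostly higher in H69M. Laminins are the trimers of the basement membrane and collagens its network and the fibrils beyond it. Of 35 tested, 29 were higher and 1 lower in H69M, with a median of 6.04 log2 units, or 5.65 with genes at 0 counts set at their bound. Their summed level was 24458 and 52722 CPM in H69M, against 1040 and 569 CPM in H69. COL3A1, a fibrillar collagen, had 271 and 267 CPM in H69M, against no count in either H69 library (at least 7031-fold, adjusted p = 1.53e-05). COL5A1, which sets fibril width, had 1267 and 3161 CPM in H69M, against 2.37 and 1.93 CPM in H69 (log2 10.01, adjusted p = 6.12e-06). COL4A2, a basement membrane chain, had 364 and 2402 CPM in H69M, against 0 and 0.223 CPM in H69 (log2 13.53, adjusted p = 0.000929), so the 2 H69M libraries themselves differed several-fold. COL6A2 had 396 and 661 CPM in H69M, against 0.105 and 0 CPM in H69 (log2 13.26, adjusted p = 1.12e-05). Among laminins, LAMB2 had 253 and 367 CPM in H69M, against 2.21 and 2.33 CPM in H69 (log2 7.09, adjusted p = 2.53e-07), while LAMC1, the common gamma chain, had 1369.7 and 2800.1 CPM in H69M, against 193 and 111 CPM in H69 (log2 3.78, adjusted p = 0.000105). The 1 lower member was COL4A3, a collagen of specialised basement membranes, with 0.0757 and 0.302 CPM in H69M, against 1.21 and 3.04 CPM in H69 (log2 -3.48, adjusted p = 0.00879), a call lost without H69 replicate 2 (adjusted p = 0.0581) or H69M replicate 1 (adjusted p = 0.0746).

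The matrix group shares genes with the fibroblast markers, all 8 of which were higher in H69M (median 8.73, or 8.42 at the bound). Their sum was 17222 and 37196 CPM in H69M, against 512 and 149 CPM in H69, and it includes both collagen I genes. The defining fibroblast genes were uneven. DCN, the proteoglycan decorin, had 0.681 and 0.504 CPM in H69M, against no count in either H69 library, LUM, the proteoglycan lumican, had 18.1 and 48.3 CPM in H69M and 3 raw counts in all in H69, and FAP, the fibroblast activation protease, had 11.9 and 10.9 CPM in H69M, against 0 and 0.148 CPM in H69. PDGFRA had 8.76 and 3.88 CPM in H69M, against 1.13 and 0.396 CPM in H69, a call lost without H69 replicate 2 (adjusted p = 0.072) or H69M replicate 1 (adjusted p = 0.0587). The part of another cell type in the matrix result was not tested.

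Enzymes that cut and crosslink matrix followed. Of 39 such genes 27 were higher in H69M and none lower (median 3.10). LOXL2, a lysyl oxidase that crosslinks collagen, had 837 and 790.3 CPM in H69M, against 4.16 and 1.66 CPM in H69 (log2 8.13, adjusted p = 2.46e-05). P3H2, a prolyl hydroxylase of collagen IV, had 206 and 317 CPM in H69M, against 0.158 and 0.0742 CPM in H69 (log2 11.12, adjusted p = 2.26e-07). TIMP2, an inhibitor of metalloproteases, had 632 and 1034 CPM in H69M, against 71.6 and 61.1 CPM in H69 (log2 3.65, adjusted p = 7.75e-06). All 3 had a several-fold gap between the lowest H69M and the highest H69 library. In the urokinase system, the protease PLAU (log2 5.09) and its receptor PLAUR (3.58) were each called higher. MMP14, the membrane-bound collagenase, had 93.01 and 30.4 CPM in H69M, against 0.132 and 0.594 CPM in H69 (log2 7.39, adjusted p = 0.000384). The gelatinase MMP2, present in both lines, had 339 and 297 CPM in H69M, against 225 and 67.4 CPM in H69 (adjusted p = 0.159) and was not called.

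Mesenchymal and motility genes were higher in 38 of 47 cases, and none was lower (median 6.18). SPARC, a secreted collagen-binding protein, had 2082 and 4116 CPM in H69M, against 0 and 0.668 CPM in H69 (log2 13.14, adjusted p = 0.000397). FN1, fibronectin, had 2092 and 3429.5 CPM in H69M, against 0 and 2.28 CPM in H69 (log2 11.23, adjusted p = 0.00146). CDH2, N-cadherin, had 1369.8 and 1777 CPM in H69M, against 86.7 and 44.4 CPM in H69 (log2 4.59, adjusted p = 6.87e-06). CALD1, caldesmon, had 629.6 and 636 CPM in H69M, against 0.158 and 0 CPM in H69 (log2 12.96, adjusted p = 1.75e-05). CAV1, the coat protein of caveolae, had 447 and 439 CPM in H69M, against 0 and 0.520 CPM in H69 (log2 10.69, adjusted p = 0.000433). The few counts of FN1, VIM, SPARC and CAV1 in H69 lay in replicate 2 of that line. Members not called include the actin bundler FSCN1, which had 782 and 993 CPM in H69M, against 1785 and 895 CPM in H69.

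Cell-matrix receptors were higher as well. Integrins, the paired receptors that hold cells to matrix, were higher in 15 of 20 cases and lower in none (median 3.82). ITGA3, a laminin receptor chain, had 2105 and 3119 CPM in H69M, against 45.3 and 56.7 CPM in H69 (51.3-fold, log2 5.68, adjusted p = 2.26e-07). ITGA5, the fibronectin receptor chain, had 703 and 864 CPM in H69M, against 2.84 and 1.04 CPM in H69 (log2 8.66, adjusted p = 0.000481). ITGB1, the common beta chain, had 808 and 1109 CPM in H69M, against 269.8 and 143 CPM in H69 (log2 2.22, adjusted p = 0.000999). ITGB4, the beta chain of hemidesmosomes, had 28.3 and 10.1 CPM in H69M, against 1.18 and 1.04 CPM in H69 (log2 4.11, adjusted p = 0.000628). Of 38 genes that link integrins to actin 26 were higher and 1 lower (median 1.96). VCL, vinculin, had 719.6 and 1092 CPM in H69M, against 26.5 and 23.2 CPM in H69 (log2 5.19, adjusted p = 3.41e-07). TLN1, talin, had 1399.6 and 2261 CPM in H69M, against 194 and 182 CPM in H69 (log2 3.28, adjusted p = 2.03e-06). FERMT2, an integrin activator, had 623 and 475 CPM in H69M, against 16.5 and 10.7 CPM in H69 (log2 5.33, adjusted p = 2.57e-07). The lower member was the calcium-sensitive kinase PTK2B, with 10.6 and 11.6 CPM in H69M, against 109 and 64.9 CPM in H69 (log2 -2.97, adjusted p = 0.000321).

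Epithelial genes went both ways. Of 43 junction and keratin genes 18 were higher and 13 lower in H69M (median 0.93), and 13 and 8 without H69M replicate 1. CDH3, P-cadherin, had 218 and 130.4 CPM in H69M, against 0.868 and 0.891 CPM in H69 (log2 7.63, adjusted p = 1.16e-06), and the tight junction protein gene CLDN1 had 192 and 78.4 CPM in H69M, against 0 and 0.0990 CPM in H69 (log2 11.31, adjusted p = 1.78e-05). On the lower side, EPCAM, an epithelial adhesion molecule, had 57.1 and 61.8 CPM in H69M, against 205 and 227 CPM in H69 (log2 -1.86, adjusted p = 0.000576). DSP, which anchors desmosomes, had 24.6 and 41.6 CPM in H69M, against 285 and 261 CPM in H69 (log2 -3.05, adjusted p = 4.49e-05). F11R, a junctional adhesion molecule, had 40.3 and 87.2 CPM in H69M, against 456 and 273 CPM in H69 (log2 -2.51, adjusted p = 0.000296). E-cadherin, CDH1, was low in all 4 libraries, with 8.30 and 9.52 CPM in H69M, against 3.66 and 7.42 CPM in H69 (adjusted p = 0.367). Transcription factors of the epithelial-mesenchymal transition numbered 7 higher and 4 lower of 25 (28% and 16%, near the 18.4% and 15.6% of all genes; median -0.15). Without H69 replicate 1 the count was 6 higher and 2 lower and the median 0.27, and without H69M replicate 1 the count was 5 higher and 2 lower. ZEB2, a repressor of E-cadherin, had 47.8 and 39.96 CPM in H69M, against 0.158 and 0 CPM in H69 (log2 9.10, adjusted p = 4.9e-05). PRRX1, a mesenchymal homeobox factor, had 58.4 and 25.96 CPM in H69M, against no count in either H69 library (at least 1102-fold, adjusted p = 1.52e-05). TWIST1, another factor of this class, had 32.8 and 29.2 CPM in H69M, against 56.8 and 37.5 CPM in H69, without a call (adjusted p = 0.147).

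Neuroendocrine genes were lower in H69M. The transcription factors of this state specify neurons and endocrine cells, and 20 of 30 were lower and 1 higher (median -3.62). Without H69M replicate 2 the count was 22 lower and 1 higher with a median of -4.98, and without H69M replicate 1 it was 12 lower and 1 higher. NEUROG2, a proneural factor, had 0.126 and 0.201 CPM in H69M, against 24.7 and 12.1 CPM in H69 (log2 -6.79 (SE 1.15), adjusted p = 0.000846; -7.16 without H69M replicate 2). PROX1 had 2.52 and 2.34 CPM in H69M, against 34.9 and 30.9 CPM in H69 (log2 -3.76 (SE 0.41), adjusted p = 2.76e-05; -3.70 without it), and HES6, an antagonist of HES1, had 13.7 and 27.7 CPM in H69M, against 186 and 275 CPM in H69 (log2 -3.47 (SE 0.36), adjusted p = 2.03e-05; -4.07 without it). In these 3 genes both H69M libraries lay below both H69 libraries by several-fold. The lung factor NKX2-1 had 7.32 and 2.92 CPM in H69M, against 29.8 and 23.5 CPM in H69 (log2 -2.38, adjusted p = 0.000939; -1.86 without H69M replicate 2).

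For some defining genes the H69M libraries differed so much that the test made no call. INSM1, the zinc-finger factor used to diagnose these tumours (chromosome 20, 20368121 to 20370949, plus strand), had 6.38 and 256 CPM in H69M, against 2216 and 1571 CPM in H69 (log2 -3.85 (SE 1.76), adjusted p = 0.116). Without H69M replicate 2 its log2 difference was -8.21 (adjusted p = 0.0436). The H69M libraries lay below both H69 libraries, but differed far more from each other than the H69 libraries did. NEUROD1, a neurogenic factor, had 0 and 1.64 CPM in H69M, against 5.16 and 5.79 CPM in H69 (adjusted p = 0.247), and without H69M replicate 2 no H69M count was left (adjusted p = 0.0519). ST18, a zinc-finger factor of endocrine cells, had 0.278 and 7.55 CPM in H69M, against 69.9 and 48.2 CPM in H69 (log2 -3.91, adjusted p = 0.111, and log2 -7.72, adjusted p = 0.0742 without H69M replicate 2), and the same pattern was seen in NEUROD4, with 0.328 and 21.9 CPM in H69M, against 237 and 110.0 CPM in H69 (log2 -3.97, adjusted p = 0.125, and log2 -9.04, adjusted p = 0.0501 without it).

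Dense-core granules carry the hormones and chromogranins of such cells. Of 23 granule genes 12 were lower and none higher in H69M (median -3.17), and 13 lower with a median of -4.83 without H69M replicate 2. CHGA, chromogranin A, had 1.87 and 26.2 CPM in H69M, against 495 and 514 CPM in H69 (log2 -5.17 (SE 1.40), adjusted p = 0.0165). The CHGA call was lost without H69 replicate 1 or 2 (adjusted p = 0.0532 and 0.0528) or H69M replicate 1 (0.0728), and stood at log2 -8.07 (adjusted p = 0.012) without H69M replicate 2. CHGB, chromogranin B, had 8.50 and 21.6 CPM in H69M, against 389.6 and 278 CPM in H69 (log2 -4.47 (SE 0.71), adjusted p = 0.000607; -5.29 without H69M replicate 2). GRP, gastrin-releasing peptide, had 0.833 and 3.27 CPM in H69M, against 22.3 and 100.4 CPM in H69 (log2 -4.90 (SE 0.99), adjusted p = 0.00302; -6.20 without H69M replicate 2), and the prohormone convertase PCSK1 had 15.9 and 19.6 CPM in H69M, against 192 and 121 CPM in H69 (log2 -3.14 (SE 0.41), adjusted p = 0.00012; -3.30 without it). Not every granule gene moved: SCG2, secretogranin II, had 269 and 108 CPM in H69M, against 211 and 153 CPM in H69, and PAM, the peptide-amidating enzyme, had 368 and 551 CPM in H69M, against 484 and 305 CPM in H69, both with overlapping groups (adjusted p = 0.934 and adjusted p = 0.604). SV2A, a vesicle glycoprotein, had 112 and 138 CPM in H69M, against 111 and 81.7 CPM in H69 (adjusted p = 0.243).

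Synaptic release genes, of which 19 of 32 were lower and 1 higher (median -2.81), had a similar count without H69M replicate 2, with 18 lower, none higher and a median of -2.99. UNC13A, a vesicle priming factor, had 20.04 and 12.3 CPM in H69M, against 158 and 140.1 CPM in H69 (log2 -3.20 (SE 0.40), adjusted p = 7.39e-05; -2.89 without H69M replicate 2), and CADPS, which primes dense-core granules, had 1.16 and 6.87 CPM in H69M, against 104 and 70.8 CPM in H69 (log2 -4.45 (SE 0.98), adjusted p = 0.00525; -6.24 without H69M replicate 2). SNAP91, a clathrin adaptor, kept 2 raw counts in H69M, against 10.8 and 4.75 CPM in H69, a ratio of 305.5 with a counting interval of 84.22 to 2528.7. The higher member was RIMS1, an active zone scaffold, with 3.58 and 6.47 CPM in H69M, against 0.658 and 0 CPM in H69 (log2 3.93, adjusted p = 0.0342), a call lost without H69 replicate 2 (adjusted p = 0.095) or H69M replicate 2 (0.0906). SYNPR, a synaptic vesicle protein gene outside the list, also kept 2 raw counts in H69M and was lower by a ratio of 282.8 (counting interval 77.92 to 2340.8).

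**Figure D3:**
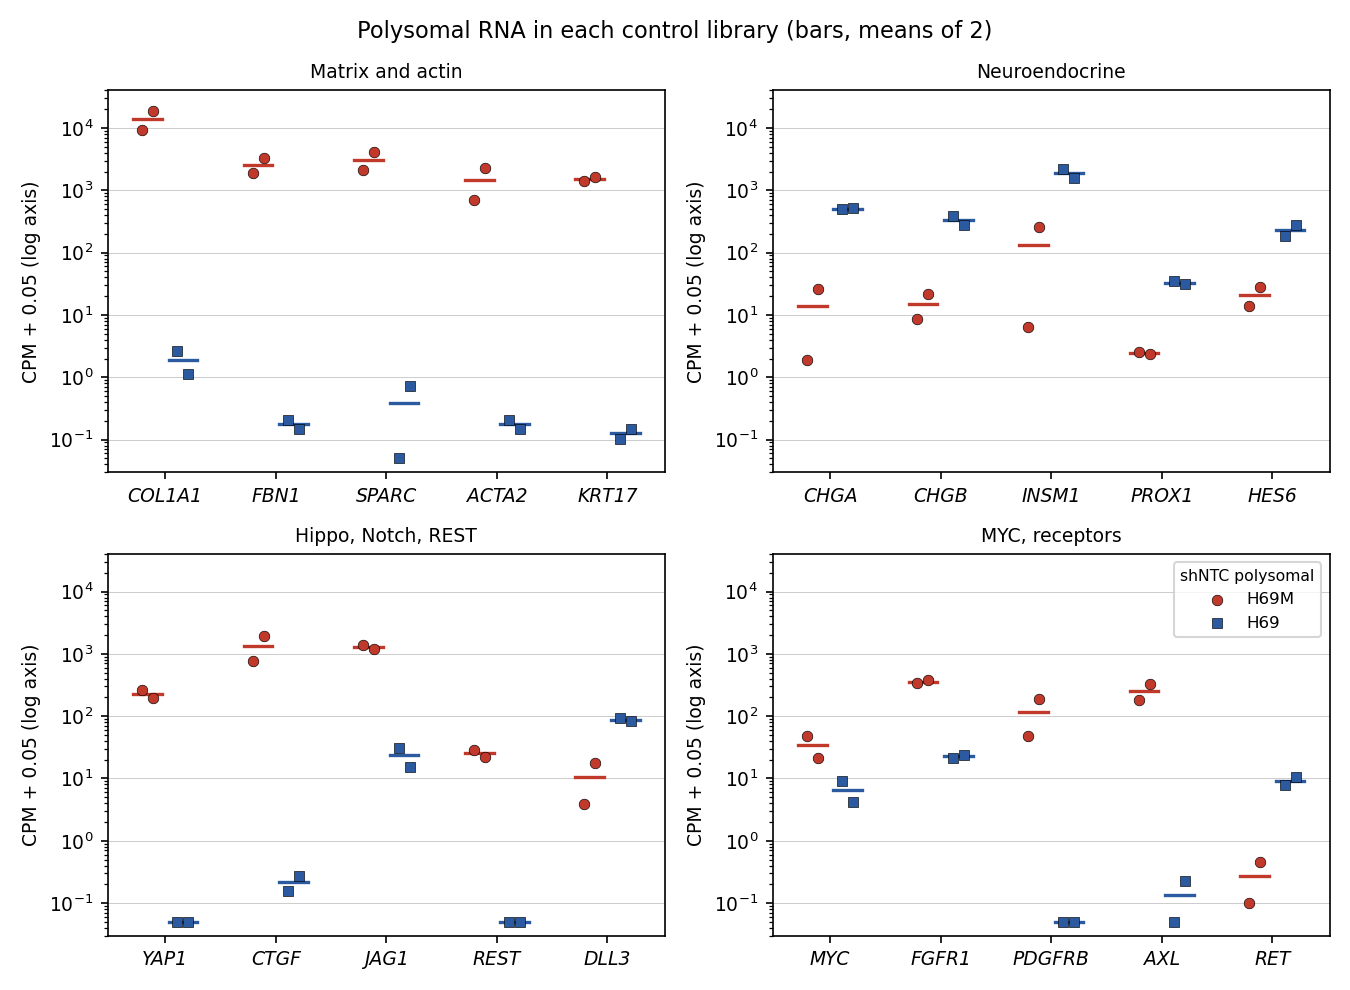
CPM + 0.05 (log axis) of single genes in each control polysomal library, H69M left and H69 right of each gene, with bars at the means of 2 libraries. For INSM1 and CHGA the H69M libraries are more than 10-fold apart, while for COL1A1, YAP1 and REST both H69M libraries lie far above both H69 libraries.

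Neuronal adhesion, cytoskeleton and RNA-binding genes were lower in 22 of 40 cases and higher in 2 (median -2.31; 24 lower, 2 higher and -2.56 without H69M replicate 2). SRRM4, the splicing factor that includes neuronal microexons, had 0 and 0.101 CPM in H69M, against 48.7 and 21.3 CPM in H69 (695-fold lower, log2 -9.37 (SE 0.94), adjusted p = 2.6e-05). TUBB3, neuronal tubulin, had 110.5 and 194 CPM in H69M, against 1135 and 835 CPM in H69 (log2 -2.69, adjusted p = 0.000236; -3.16 without H69M replicate 2), and STMN2, a microtubule regulator of growing axons, had 4.62 and 10.05 CPM in H69M, against 174 and 106 CPM in H69 (log2 -4.26, adjusted p = 1.44e-05; -4.92 without it). KIF1A, the motor that carries synaptic cargo, had 57.6 and 140.2 CPM in H69M, against 781 and 1077 CPM in H69 (log2 -3.23, adjusted p = 0.00135; -4.01 without it). The higher members were the neurofilament gene NEFL, with 452 and 279 CPM in H69M, against 0 and 1.36 CPM in H69 (log2 9.05, adjusted p = 0.000441), and the adhesion molecule gene L1CAM, with 460.1 and 871 CPM in H69M, against 78.7 and 58.1 CPM in H69 (log2 3.28, adjusted p = 1.88e-05). MAP1B, a neuronal microtubule protein, had 1378 and 939.6 CPM in H69M, against 970.3 and 596 CPM in H69, without a call (adjusted p = 0.215).

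Channels and receptors of excitable cells were lower in 19 of 32 cases and higher in 4 (median -2.78); the counts were 12 lower and 3 higher without H69 replicate 2, and 21 lower and 4 higher without H69M replicate 2. GABRA4, a GABA receptor chain, had no count in H69M, against 24.9 and 6.46 CPM in H69, and was at least 415-fold lower (adjusted p = 0.000499). CHRNA3, a nicotinic receptor chain, had 1.51 and 11.9 CPM in H69M, against 159 and 126 CPM in H69 (log2 -4.41, adjusted p = 0.000627; -6.55 without H69M replicate 2). PIEZO1, which opens on membrane stretch, had 254 and 397 CPM in H69M, against 5.50 and 5.92 CPM in H69 (log2 5.83, adjusted p = 5.63e-07). TRPV2 had 118 and 158 CPM in H69M, against 0.342 and 1.76 CPM in H69 (log2 7.03, adjusted p = 0.000101). The remaining higher members were the potassium channel gene KCNN3 (log2 3.99, adjusted p = 0.000655) and GRIK2, a kainate receptor gene (log2 1.22, adjusted p = 0.0442), whose call was lost without H69M replicate 2 (adjusted p = 0.277), H69 replicate 1 (0.0741) or H69 replicate 2 (0.213).

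Other genes of H69 with the largest folds lay outside these lists. ST6GAL1, a sialyltransferase, had no count in H69M and was at least 512-fold lower (adjusted p = 0.000136). SLC8A2, a sodium-calcium exchanger of neurons, had 0 and 0.629 CPM in H69M, against 92.3 and 33.2 CPM in H69 (log2 -7.63, adjusted p = 0.00211). IGSF11, an adhesion molecule of synapses, had 0 and 0.126 CPM in H69M, against 29.4 and 9.55 CPM in H69 (log2 -8.21, adjusted p = 0.000104). ADH1C (199-fold lower), OLFM3 (166-fold) and C1orf61 (156-fold) had a few counts left in H69M, and PLCXD3 and KANK4 had none (at least 153-fold and 152-fold lower). A list of 13 long noncoding RNAs had 23.1% of its members higher and 7.69% lower, against 18.4% and 15.6% of all genes tested. The imprinted noncoding RNA H19 had 0.151 and 0.403 CPM in H69M, against 142 and 97.7 CPM in H69 (log2 -8.75, adjusted p = 3.23e-05). It was the 1 lower member among 13 long noncoding RNAs known to stay largely in the nucleus or to act as RNA, of which 3 were higher (median 0.52); 1 was higher and 1 lower without H69 replicate 1 or H69M replicate 1.

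Notch signalling, in which a ligand on 1 cell triggers cleavage of a receptor on the next, is a known switch between the states of this cancer, and REST is the repressor that keeps neuronal genes off in other cells. REST had 29.1 and 21.7 CPM in H69M, against no count in either H69 library, at least 664-fold higher in H69M (adjusted p = 1.46e-05). Of 31 Notch pathway genes including REST, 14 were higher and 6 lower (median 0.29). The share higher was 45.2%, against 18.4% of all genes tested and 23.2% of expressed protein-coding genes. The share lower was 19.35%, above the 15.6% of all genes tested and below the 22.3% of expressed protein-coding genes. Among receptors and ligands, NOTCH1 had 107 and 109.7 CPM in H69M, against 1.66 and 6.78 CPM in H69 (log2 4.68, adjusted p = 0.00023), NOTCH3 had 41.96 and 124 CPM in H69M, against no count in either H69 library (at least 2172-fold, adjusted p = 2.3e-05) and JAG1 had 1410.5 and 1202 CPM in H69M, against 31.3 and 15.3 CPM in H69 (log2 5.81, adjusted p = 2.45e-06). HES1, the effector that represses neuroendocrine factors, had 68.6 and 53.1 CPM in H69M, against 8.63 and 5.17 CPM in H69 (log2 3.14 (SE 0.38), adjusted p = 6.8e-05). Inhibitory and endothelial ligands were lower. DLL3, an inhibitory ligand displayed on neuroendocrine tumour cells, had 3.89 and 17.4 CPM in H69M, against 93.3 and 82.02 CPM in H69 (log2 -3.04 (SE 0.75), adjusted p = 0.00878); the call was lost without H69M replicate 1 (adjusted p = 0.0524) and the value was -4.49 without H69M replicate 2. DLL4 had 2.20 and 1.33 CPM in H69M, against 14.8 and 16.9 CPM in H69 (log2 -3.16, adjusted p = 0.000104). DLK1, a non-canonical ligand, had 2.22 and 2.47 CPM in H69M, against 15.99 and 25.8 CPM in H69 (log2 -3.16, adjusted p = 0.00208). HEY2, another effector, was also lower, with 2.45 and 3.83 CPM in H69M, against 60.8 and 40.5 CPM in H69 (log2 -4.01, adjusted p = 7.12e-06).

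Hippo kinases hold the coactivators YAP1 and WWTR1 out of the nucleus, where they act through TEAD factors. YAP1 itself (chromosome 11, 102110461 to 102233423, plus strand) had 262 and 196 CPM in H69M, against no count in either H69 library (at least 5982-fold higher, adjusted p = 1.08e-05). WWTR1, its paralog TAZ, had 93.7 and 68.5 CPM in H69M, against 0.210 and 0 CPM in H69 (log2 9.59, adjusted p = 9.14e-05). Among TEAD genes, TEAD2 had 20.4 and 9.17 CPM in H69M, against no count in either H69 library (at least 387-fold, adjusted p = 0.000481) and TEAD3 had 38.9 and 62.2 CPM in H69M, against 0.316 and 0.693 CPM in H69 (log2 6.63, adjusted p = 7.35e-05), while TEAD1 had 235 and 280.3 CPM in H69M, against 159.7 and 154 CPM in H69 and was not called (adjusted p = 0.133). The kinase LATS2 had 43.5 and 35.6 CPM in H69M, against no count in either H69 library (at least 1034-fold, adjusted p = 5.74e-05), whereas its relative LATS1 had 42.6 and 36.9 CPM in H69M, against 34.6 and 28.4 CPM in H69 (adjusted p = 0.313). Together 13 of 24 Hippo genes were higher and 1 lower (median 1.36). The lower one, WWC1, an upstream scaffold, had 13.6 and 14.96 CPM in H69M, against 54.1 and 53.2 CPM in H69 (log2 -1.91, adjusted p = 0.000246).

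Genes known as targets of YAP and TEAD were higher in 20 of 27 cases and lower in 1 (median 6.21). The promoter windows of 3 of them are shown because their products are textbook targets and the windows hold the TEAD motif GGAATG, in capitals. They are RefSeq sequences of GRCh38.p14, 250 bases before to 50 after the gene start, read 5′ to 3′ along the gene: CTGF (CCN2 in RefSeq), chr6:131951323-131951622, minus strand; ANKRD1, chr10:90921038-90921337, minus strand; THBS1, chr15:39580829-39581128, plus strand.
CTGF: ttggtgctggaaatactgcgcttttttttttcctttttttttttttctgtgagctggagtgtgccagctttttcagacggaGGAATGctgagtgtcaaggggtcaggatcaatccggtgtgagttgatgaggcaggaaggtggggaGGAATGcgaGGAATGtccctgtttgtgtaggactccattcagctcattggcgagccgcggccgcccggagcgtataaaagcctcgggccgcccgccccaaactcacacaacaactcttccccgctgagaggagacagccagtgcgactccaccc
ANKRD1: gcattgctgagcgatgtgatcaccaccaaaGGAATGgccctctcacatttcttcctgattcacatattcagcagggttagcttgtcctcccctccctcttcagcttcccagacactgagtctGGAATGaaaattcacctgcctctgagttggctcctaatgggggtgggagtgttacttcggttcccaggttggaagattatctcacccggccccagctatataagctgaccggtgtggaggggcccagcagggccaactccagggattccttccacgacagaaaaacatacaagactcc
THBS1: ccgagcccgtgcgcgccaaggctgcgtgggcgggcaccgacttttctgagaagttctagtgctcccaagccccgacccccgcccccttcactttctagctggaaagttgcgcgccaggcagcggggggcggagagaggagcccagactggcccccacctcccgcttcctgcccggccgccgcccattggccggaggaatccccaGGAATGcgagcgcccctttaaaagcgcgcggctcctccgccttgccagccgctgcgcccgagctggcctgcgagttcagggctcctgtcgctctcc

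CTGF, a matricellular growth factor whose window holds 3 copies of the motif, had 775 and 1919.8 CPM in H69M, against 0.105 and 0.223 CPM in H69 (log2 12.97 (SE 1.89), adjusted p = 0.000477). ANKRD1, a nuclear ankyrin protein with 2 copies, had 73.96 and 70.2 CPM in H69M, against 0 and 0.173 CPM in H69 (log2 9.62 (SE 1.65), adjusted p = 0.00227). THBS1, thrombospondin, with 1 copy, had 356 and 1078 CPM in H69M, against 3.84 and 3.51 CPM in H69 (log2 7.61 (SE 0.84), adjusted p = 4.78e-05). In all 3 genes both H69M libraries stood more than 10-fold above both H69 libraries. CYR61, the relative of CTGF, had 300.1 and 487 CPM in H69M, against 2.52 and 0.916 CPM in H69 (log2 7.84, adjusted p = 0.000183), AJUBA, a LIM protein that binds LATS kinases, had 803 and 593 CPM in H69M, against 1.45 and 1.29 CPM in H69 (log2 8.99, adjusted p = 2.26e-07). IGFBP3, a carrier of insulin-like growth factors, had 103 and 632 CPM in H69M, against no count in either H69 library (at least 9604-fold, adjusted p = 0.00055). The target called lower was BIRC5, which codes for survivin, a mitotic protein, with 79.6 and 142 CPM in H69M, against 187 and 207 CPM in H69 (log2 -0.83, adjusted p = 0.0321); the call was lost without H69 replicate 1 or 2 (adjusted p = 0.0723 and 0.125) or H69M replicate 1 (0.265).

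Across the genes called higher at large the motif lay in a minority of windows. Promoter windows matched 12348 of the 15208 protein-coding genes tested by symbol (81.2%). GGAATG on either strand lay in 13.9% of 4333 windows of genes called higher in H69M, in 11.3% of 10354 windows of genes not called and in 14.0% of all 35116 windows of the table. The AP-1 motif TGANTCA lay in 7.32%, 5.08% and 7.71% of the same windows, and the E-box CAGCTG in 19.7%, 17.65% and 17.95%. Counted by gene, 11 of 18 genes of the target list with a window (61.1%) held GGAATG in at least 1 window, against 15.3% of all 12348 genes matched and 19.4% of the 2795 among them called higher. A window was found for 81.1% of protein-coding genes called higher, 82.3% of those not called and 78.0% of those called lower. By gene, GGAATG lay in 14.3% of those not called and 13.7% of those called lower. Genes called higher had more windows each than genes not called, which raises a share counted by gene. No test was made on motifs.

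Receptor tyrosine kinases, the entry points of growth factor signals, were higher in 21 of 44 cases and lower in 4 (median 1.32; 18 and 2 without H69M replicate 1). AXL, the receptor of GAS6 and a marker of mesenchymal tumour cells, had 184 and 322 CPM in H69M, against 0 and 0.173 CPM in H69 (log2 11.43 (SE 1.47), adjusted p = 0.000199). PDGFRB had 47.1 and 188 CPM in H69M, against no count in either H69 library (at least 3074-fold, adjusted p = 0.000141), FGFR1 had 338 and 377 CPM in H69M, against 21.04 and 24.1 CPM in H69 (log2 3.98, adjusted p = 5.19e-07) and EPHA2 had 508 and 306 CPM in H69M, against 1.32 and 0.421 CPM in H69 (log2 8.88, adjusted p = 2.14e-05). The lower members were ephrin receptor genes EPHA4 and EPHA7 and 2 kinases of neural crest tumours. RET had 0.0505 and 0.403 CPM in H69M, against 7.84 and 10.3 CPM in H69 (log2 -5.31, adjusted p = 0.00425) and ALK had 0.454 and 0.201 CPM in H69M, against 19.99 and 8.37 CPM in H69 (log2 -5.42, adjusted p = 0.00352). The EPHA4 and EPHA7 calls (log2 -1.59 and -1.69) were lost without H69M replicate 1 (adjusted p = 0.0902 and 0.088), and also without H69 replicate 1 for EPHA4 (0.0781) and H69 replicate 2 for EPHA7 (0.0669). KIT, the stem cell factor receptor, had 11.4 and 44.3 CPM in H69M, against 43.5 and 37.3 CPM in H69, and the groups overlapped (adjusted p = 0.69).

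Growth factor ligands were higher in 24 of 41 cases and lower in 4 (median 2.49; 22 and 2 without H69 replicate 1). HBEGF, a membrane-bound EGF relative, had 37.2 and 64.7 CPM in H69M, against 1.58 and 1.76 CPM in H69 (log2 4.93, adjusted p = 7.18e-06). EREG had 8.68 and 4.88 CPM in H69M, against no count in either H69 library (at least 177-fold, adjusted p = 7.53e-05). PDGFB, a ligand of PDGFRB, had 99.5 and 116 CPM in H69M, against 2.76 and 1.34 CPM in H69 (log2 5.72, adjusted p = 1.06e-05). FGF2, a ligand of FGFR1, had 82.2 and 32.8 CPM in H69M, against 6.39 and 8.51 CPM in H69 (log2 2.95, adjusted p = 0.000409). Both the ligand and the receptor were thus higher for those 2 pairs. TGFB1 had 148 and 259.6 CPM in H69M, against 11.6 and 10.7 CPM in H69 (log2 4.19, adjusted p = 1.34e-05), and the cytokine LIF had 76.3 and 31.1 CPM in H69M, against 0.395 and 0.148 CPM in H69 (log2 7.62, adjusted p = 2.42e-05). IGF2, a fetal growth factor, was lower, with 0.101 and 1.46 CPM in H69M, against 15.2 and 14.9 CPM in H69 (log2 -4.26, adjusted p = 0.0028), as was PDGFD (log2 -2.57, adjusted p = 0.00144). GDF15, a stress-induced cytokine whose H69M libraries lay on either side of both H69 libraries, had 777 and 27.6 CPM in H69M, against 73.1 and 102 CPM in H69 (adjusted p = 0.292).

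The TGF-beta pathway, which drives matrix production, had 18 of 33 genes higher and 3 lower (median 1.26). All 4 latency proteins that store the ligand in matrix were called higher: LTBP4, the one with the smallest adjusted p, had 201 and 184 CPM in H69M, against 4.42 and 2.99 CPM in H69 (log2 5.70, adjusted p = 6.7e-07). SMAD3, a signal carrier, had 151 and 125 CPM in H69M, against 22.1 and 13.5 CPM in H69 (log2 2.96, adjusted p = 0.000105). FSTL1, a secreted glycoprotein, had 1228 and 2496 CPM in H69M, against 0.237 and 0.470 CPM in H69 (log2 12.34, adjusted p = 0.000311), and ID2 and ID4, which hold back differentiation factors, were lower (log2 -2.43 and -2.27). Wnt pathway genes were higher in 19 of 39 cases and lower in 7 (median 0.93), but 15 and 4 without H69 replicate 1, 13 and 3 without H69 replicate 2 and 16 and 3 without H69M replicate 1. With all libraries the share of Wnt genes higher was 48.7%, against 18.4% of all genes tested and 23.2% of expressed protein-coding genes. The share of Wnt genes lower was 17.95%, above the 15.6% of all genes tested and below the 22.3% of expressed protein-coding genes. WNT5B had 55.5 and 72.6 CPM in H69M, against 1.37 and 0.841 CPM in H69 (log2 5.86, adjusted p = 6.58e-07), FZD2, a receptor, had 162 and 314 CPM in H69M, against 40.2 and 28.5 CPM in H69 (log2 2.79, adjusted p = 0.0002), and LEF1, a nuclear effector, was lower with 14.2 and 12.3 CPM in H69M, against 54.7 and 41.2 CPM in H69 (log2 -1.86, adjusted p = 0.000173).

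ERK output and AP-1 were less uniform. Of 19 ERK targets 6 were higher and 2 lower (median 1.18, but -0.32 without H69M replicate 1), and of 14 AP-1 genes 5 were higher and 1 lower (median 0.84, but -0.12 with 2 higher and 1 lower without H69M replicate 1, and 3 higher and 1 lower without H69 replicate 1 or any H69 sheIF6 library). With all libraries 31.6% of ERK targets were higher and 10.5% lower, and 35.7% and 7.14% of AP-1 genes. Over all genes tested the shares were 18.4% and 15.6%. FOSL1, an AP-1 subunit that ERK stabilises, had 109 and 31.7 CPM in H69M, against 0 and 0.297 CPM in H69 (log2 8.84 (SE 1.28), adjusted p = 0.000361). FOSL2 had 196 and 143 CPM in H69M, against 13.2 and 23.7 CPM in H69 (log2 3.20, adjusted p = 0.000175). CCND1, cyclin D1, had 65.7 and 87.2 CPM in H69M, against 3.18 and 3.14 CPM in H69 (log2 4.59 (SE 0.46), adjusted p = 1.49e-05). DUSP5, a phosphatase that ERK induces, had 54.7 and 34.4 CPM in H69M, against 2.08 and 3.39 CPM in H69 (log2 4.02, adjusted p = 3.31e-05). FOS was lower, with 2.55 and 0.957 CPM in H69M, against 15.7 and 10.8 CPM in H69 (log2 -2.91, adjusted p = 0.0106), a call lost without H69M replicate 2 (adjusted p = 0.0728).

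Inflammatory and antigen presentation genes, which are typically low in neuroendocrine small cell lung cancer, were higher in H69M. Of 39 NF-kB factors, cytokines and chemokines 29 were higher and 1 lower (median 4.55, or 3.95 at the bound). NFKB1 had 105 and 71.1 CPM in H69M, against 9.13 and 11.1 CPM in H69 (log2 3.12, adjusted p = 1.82e-05). ICAM1, an adhesion molecule that NF-kB induces, had 215 and 648 CPM in H69M, against 0.500 and 0.619 CPM in H69 (log2 9.58, adjusted p = 8.76e-06). IL6ST, the shared receptor of the IL-6 family, had 125 and 230.2 CPM in H69M, against 0.684 and 0.767 CPM in H69 (log2 7.93, adjusted p = 6.87e-06). OSMR, its oncostatin M partner, had 21.5 and 19.9 CPM in H69M, against no count in either H69 library (at least 541-fold, adjusted p = 2.09e-05). The cytokine gene IL6 had 3.23 and 1.16 CPM in H69M, against no count in either H69 library (at least 57.4-fold, adjusted p = 0.00069). IL1B had 6.03 and 2.24 CPM in H69M, against no count in either H69 library (at least 108-fold, adjusted p = 0.00231). CXCR4, the receptor of the chemokine CXCL12, was lower, with 37.1 and 32.7 CPM in H69M, against 347 and 142 CPM in H69 (log2 -2.81, adjusted p = 0.000449).

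Of 50 genes of MHC class I presentation and interferon response 41 were higher in H69M and none lower (median 4.39). HLA-B had 85.5 and 188 CPM in H69M, against 0 and 0.297 CPM in H69 (log2 9.79, adjusted p = 0.000134) and HLA-C had 142 and 149.5 CPM in H69M, against 3.73 and 4.11 CPM in H69 (log2 5.21, adjusted p = 1.88e-06); reads of the HLA class I genes can be shared between near-identical copies. B2M, the light chain, was present in both lines, with 526 and 539.5 CPM in H69M, against 148 and 167 CPM in H69 (log2 1.76, adjusted p = 2.71e-05). TAP1, the peptide transporter, had 15.1 and 19.3 CPM in H69M, against no count in either H69 library (at least 451-fold, adjusted p = 1.12e-05). NLRC5, the transactivator of class I genes, had 47.4 and 29.1 CPM in H69M, against 0.0526 and 0.446 CPM in H69 (log2 7.23, adjusted p = 5.4e-05). TMEM173, the signalling adaptor STING, had 85.6 and 44.4 CPM in H69M, against 0.736 and 1.73 CPM in H69 (log2 5.71, adjusted p = 1.21e-05). MX1, an antiviral effector, had 71.3 and 21.1 CPM in H69M and 3 raw counts in all in H69, a ratio of 1207.8 (counting interval 413 to 5859.5). The chaperones CANX and PDIA3, which serve all secretory proteins, were not called (log2 0.61 and 0.40).

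Surface antigens used for therapy or diagnosis of this cancer gave 13 higher and 5 lower of 27 (median 0.32). The share higher was 48.15%, against 18.4% of all genes tested and 23.2% of expressed protein-coding genes. The share lower was 18.5%, above the 15.6% of all genes tested and below the 22.3% of expressed protein-coding genes. SEZ6, a neuronal surface protein, had 14.6 and 91.1 CPM in H69M, against 428 and 347 CPM in H69 (log2 -2.87, adjusted p = 0.00555; -4.73 without H69M replicate 2), and SSTR2, the somatostatin receptor, had 6.71 and 12.7 CPM in H69M, against 153 and 115 CPM in H69 (log2 -3.79, adjusted p = 5.69e-05; -4.32 without it). CD24 had 5.35 and 36.03 CPM in H69M, against 181 and 287 CPM in H69 (log2 -3.50, adjusted p = 0.00618; -5.45 without H69M replicate 2). On the higher side, CD276, the immune ligand B7-H3, had 50.01 and 86.1 CPM in H69M, against 1.79 and 3.07 CPM in H69 (log2 4.81, adjusted p = 9.39e-06), NECTIN2 had 299.8 and 405 CPM in H69M, against 33.4 and 49.7 CPM in H69 (log2 3.08, adjusted p = 2.1e-05) and CD9 had 162 and 168 CPM in H69M, against 12.7 and 2.60 CPM in H69 (log2 4.43, adjusted p = 0.00154). CD44, an adhesion receptor, had 673 and 409.7 CPM in H69M, against 253 and 94.00 CPM in H69 (log2 1.64, adjusted p = 0.0307), a call lost without H69 replicate 2 (adjusted p = 0.182) or H69M replicate 1 (0.172). CD274, the checkpoint ligand PD-L1, had 20.4 and 8.06 CPM in H69M, against 0 and 0.569 CPM in H69 (log2 5.62, adjusted p = 0.0062).

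In the MYC family, MYC had 47.5 and 21.2 CPM in H69M, against 9.02 and 4.11 CPM in H69 (log2 2.39 (SE 0.45), adjusted p = 0.0016), and both H69M libraries stood above both H69 libraries, while MYCL was near the floor in both lines, with 0.934 and 0.705 CPM in H69M, against 0.736 and 0.371 CPM in H69 (adjusted p = 0.628). Of 12 family members and partners 2 were higher and 4 lower (median -0.42; 2 and 2 without H69 replicate 2). MGA, the MAX partner that opposes MYC, was the other higher member (log2 1.40, adjusted p = 0.00335). With all libraries the shares of this list were 16.7% higher and 33.3% lower, against 18.4% and 15.6% of all genes tested. Of 31 RB, p53 and inhibitor genes 9 were higher and 7 lower (29.03% and 22.6%, against 23.2% and 22.3% of expressed protein-coding genes; median -0.18; 5 and 4 without H69M replicate 1). CDK6, the kinase partner of cyclin D1, had 263 and 184 CPM in H69M, against 61.2 and 36.01 CPM in H69 (log2 2.20, adjusted p = 0.000638), CDKN2B had 61.2 and 50.6 CPM in H69M, against 6.68 and 7.15 CPM in H69 (log2 3.01, adjusted p = 1.51e-05), and E2F2 was lower with 24.7 and 19.9 CPM in H69M, against 123 and 119.9 CPM in H69 (log2 -2.44, adjusted p = 5.67e-05). CDKN1A, the p21 inhibitor, had 267 and 249.6 CPM in H69M, against 467 and 529 CPM in H69 (log2 -0.95 (SE 0.23), adjusted p = 0.00643), and the groups did not overlap. Of 36 mitosis and replication genes 12 were lower and none higher (median -0.62), with 7 lower without H69 replicate 1 and 20 lower without the H69M libraries numbered 2. With all libraries the share of mitosis and replication genes lower was 33.3%, against 15.6% of all genes tested. MCM7, a subunit of the replicative helicase, had 425 and 448 CPM in H69M, against 1298 and 1069 CPM in H69 (log2 -1.44, adjusted p = 0.00111). AURKB, a mitotic kinase, had 40.4 and 67.3 CPM in H69M, against 197 and 142 CPM in H69 (log2 -1.65, adjusted p = 0.00272). The proliferation marker MKI67 had 193 and 274 CPM in H69M, against 142 and 178 CPM in H69, without a call (adjusted p = 0.151).

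Among apoptosis regulators 14 of 32 were higher and 2 lower (median 0.95). Genes of the death receptor route were among them: TNFRSF10B, a TRAIL receptor, had 168 and 46.8 CPM in H69M, against 0.105 and 0.544 CPM in H69 (log2 8.35, adjusted p = 0.000417), FAS had 6.96 and 12.4 CPM in H69M, against 0.0526 and 0.0495 CPM in H69 (log2 7.50, adjusted p = 4.08e-05) and CASP8, which they activate, had 38.6 and 17.2 CPM in H69M, against 3.08 and 1.29 CPM in H69 (log2 3.68, adjusted p = 0.000453). MCL1, a survival gene, had 779 and 342 CPM in H69M, against 387 and 279 CPM in H69, without a call (adjusted p = 0.165). Drug handling and repair genes were higher in 17 of 37 cases and lower in 2 (median 1.02; 15 and 4 without the H69M libraries numbered 2). SLFN11, which sensitises cells to DNA-damaging drugs, had 43.05 and 92.7 CPM in H69M, against no count in either H69 library (at least 1775-fold higher, adjusted p = 0.000459). CYP1B1, a monooxygenase, had 58.3 and 107 CPM in H69M, against no count in either H69 library (at least 2158-fold, adjusted p = 1.57e-05), and the export pump ABCC3 had 60.99 and 31.6 CPM in H69M, against 0.342 and 0.173 CPM in H69 (log2 7.48, adjusted p = 2.85e-06). NQO1, a quinone reductase, had 679.8 and 523 CPM in H69M, against 169 and 169 CPM in H69 (log2 1.83, adjusted p = 0.000279).

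Metabolic genes were mixed. Of 32 glycolysis and hypoxia genes 7 were higher and 6 lower (median 0.04), near the shares of all genes; the counts were 8 and 3 without H69 replicate 1 and 7 and 2 without H69M replicate 2, and the median was -0.30 without H69 replicate 2 and -0.82 without H69M replicate 1. LDHA, lactate dehydrogenase, had 977 and 1032 CPM in H69M, against 5306 and 2878 CPM in H69 (4.07-fold lower, log2 -2.03 (SE 0.38), adjusted p = 0.00151), whereas the glucose carrier SLC2A3 had 56.4 and 33.4 CPM in H69M, against no count in either H69 library (at least 1173-fold higher, adjusted p = 0.000543) and SLC2A1 had 478 and 503 CPM in H69M, against 131 and 83.01 CPM in H69 (log2 2.20, adjusted p = 9.56e-05). CA9, a hypoxia-induced carbonic anhydrase, had 196 and 1.56 CPM in H69M, against 79.4 and 51.6 CPM in H69, and the 2 H69M libraries were thus more than 100-fold apart (adjusted p = 0.804).

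Targets of the amino acid stress response showed the same kind of split between the H69M libraries. Of 27 genes 10 were higher and none lower (median 1.17), but 7 higher and 3 lower with a median of -0.38 without H69M replicate 1, 11 higher and 3 lower without either H69M control cytoplasmic library, and 16 higher without the H69M libraries numbered 2. ATF4, the factor that drives this response, had 688 and 143 CPM in H69M, against 145 and 224 CPM in H69 (log2 1.17 (SE 0.59), adjusted p = 0.148); its log2 difference was -0.38 without H69M replicate 1 and 1.90 (adjusted p = 0.0077) without H69M replicate 2. TRIB3, one of its targets, had 545 and 20.3 CPM in H69M, against 18.6 and 27.7 CPM in H69 (adjusted p = 0.0835). ASNS, asparagine synthetase, had 559 and 46.1 CPM in H69M, against 203 and 202 CPM in H69 (adjusted p = 0.704). Among those called, the amino acid carrier gene SLC7A5 had 850.4 and 959 CPM in H69M, against 192 and 242 CPM in H69 (log2 2.06, adjusted p = 5.58e-05) and another, SLC1A5, had 1086 and 481 CPM in H69M, against 84.01 and 64.4 CPM in H69 (log2 3.40, adjusted p = 0.000171). The cystine carrier SLC7A11 had 206 and 138 CPM in H69M, against 11.2 and 10.6 CPM in H69 (log2 3.98, adjusted p = 3.32e-05).

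Sterol and fatty acid synthesis genes were lower in 9 of 32 cases and higher in 1, with a median of -0.83. The shares were 28.1% lower and 3.125% higher, against 22.3% and 23.2% of expressed protein-coding genes. These counts rested on single libraries: 1 was lower without H69 replicate 1, 4 lower and 2 higher without H69M replicate 1, and 19 lower without the H69M libraries numbered 2. TM7SF2, a sterol reductase, had 20.7 and 21.2 CPM in H69M, against 54.02 and 67.9 CPM in H69 (log2 -1.54, adjusted p = 0.00024).

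The translation machinery was lower in the polysomal pool of H69M. Ribosomal protein mRNAs are short and are translated in step with growth. Of 33 small-subunit genes 22 were lower and none higher (median -1.11), and of 51 large-subunit genes 35 were lower and none higher (median -1.02). Without H69 replicate 2 the counts were 7 and 12 lower, without H69M replicate 1 they were 7 and 11, and without H69M replicate 2 they were 16 and 24. RPL8 had 652 and 662 CPM in H69M, against 2439.7 and 2445 CPM in H69 (log2 -1.89 (SE 0.28), adjusted p = 0.000239) and RPS3 had 575 and 737 CPM in H69M, against 1728 and 1765 CPM in H69 (log2 -1.41 (SE 0.27), adjusted p = 0.00149). In these genes both H69M libraries lay below both H69 libraries. Reads of these genes can be shared with their many processed pseudogenes. In cytoplasmic RNA the medians of the same genes were -0.31 and -0.15, and in polysomal RNA of the sheIF6 cells they were -1.06 and -0.95.

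Initiation and elongation factors had 21 of 55 members lower and 4 higher (median -0.48; 11 and 2 without H69M replicate 1). EIF3H and EIF3L, subunits of the scaffold factor eIF3, were lower (log2 -1.59 and -1.28), as was PABPC1, the poly(A) binding protein, with 199 and 189 CPM in H69M, against 403 and 369 CPM in H69 (log2 -0.99, adjusted p = 0.00375). EIF4G1, the scaffold that joins cap and ribosome, was higher, with 1409 and 1715 CPM in H69M, against 789 and 813 CPM in H69 (log2 0.96, adjusted p = 0.00647). EIF6 (chromosome 20, 35278911 to 35284985, minus strand) had 323 and 202 CPM in H69M, against 424 and 389 CPM in H69, and the groups did not overlap, but the difference was not called (log2 -0.63 (SE 0.29), adjusted p = 0.116). Its cytoplasmic log2 difference was 0.69, and its log2 difference in sheIF6 polysomal RNA -1.03. Of 15 genes that release EIF6 or mature the large subunit 6 were lower and 2 higher (median -0.54), with 3 lower and 1 higher without H69 replicate 1 and 3 lower and 2 higher without H69M replicate 2. With all libraries the shares of this list were 40% lower and 13.3% higher, against 15.6% and 18.4% of all genes tested. MRTO4, a maturation factor, had 44.5 and 47.7 CPM in H69M, against 124 and 139 CPM in H69 (log2 -1.51, adjusted p = 0.000388). MDN1, a giant ATPase of the same route, had 285 and 215 CPM in H69M, against 97.1 and 100.2 CPM in H69 (log2 1.34, adjusted p = 0.00103). SBDS, which removes EIF6 from the subunit, had 71.7 and 88.6 CPM in H69M, against 129 and 115 CPM in H69 (log2 -0.61, adjusted p = 0.0469), a call lost on leaving out either H69M library (adjusted p = 0.263 and 0.0588) or either H69 library (0.198 and 0.0874).

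Nuclear-encoded genes of oxidative phosphorylation were lower in 24 of 40 cases and higher in none (median -0.90), but 7 lower and 1 higher without H69 replicate 2 and 6 lower without H69M replicate 1. CYC1, cytochrome c1, had 209.8 and 226 CPM in H69M, against 515 and 536 CPM in H69 (log2 -1.27, adjusted p = 0.00063). COX5A, a cytochrome oxidase subunit, had 47.3 and 59.4 CPM in H69M, against 153 and 190.2 CPM in H69 (log2 -1.68, adjusted p = 0.000286). None of the 13 mitochondrially encoded mRNAs was called (median 0.34, and -0.99 without H69M replicate 2). MT-CO1 had 1069 and 5580.2 CPM in H69M, against 1355 and 2716 CPM in H69, so replicate 2 was the higher library in both lines. Further genes among those with the largest difference in CPM were lower in H69M. TUBA1A, a tubulin, had 808 and 942 CPM in H69M, against 4629.8 and 3208 CPM in H69 (4.48-fold lower, log2 -2.16, adjusted p = 0.000682). HMGB1, a chromatin protein, was 4.59-fold lower (log2 -2.20, adjusted p = 0.00058), and CKB, creatine kinase B, 3.69-fold (log2 -1.88, adjusted p = 0.00125). The RNA-binding protein genes HNRNPA2B1 (3.26-fold, log2 -1.71, adjusted p = 0.00237) and HNRNPA1 (2.35-fold, log2 -1.23, adjusted p = 0.00181) were lower too. The chaperone gene HSP90AA1 was 3.02-fold lower (log2 -1.59, adjusted p = 0.00836), a call lost without H69M replicate 1 (adjusted p = 0.0807) or H69 replicate 1 (0.0833).

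Whether a difference on polysomes goes beyond that in cytoplasmic RNA was tested as an interaction between line and fraction, with the 4 control cytoplasmic libraries as the other fraction. No gene was called: 0% higher and 0% lower of 23100, with 1165 and 962 genes at an unadjusted p under 0.05 and a smallest adjusted p of 0.0577 in edgeR's quasi-likelihood test. DESeq2 called 147 higher and 47 lower. Leaving out H69 control cytoplasmic replicate 2 gave 5 higher and 3 lower by edgeR. No single gene is named from it here.

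As a class, genes nevertheless sorted by coding length, a property the contrast did not use. Among 9978 protein-coding genes with a mean over 10 CPM, the median polysomal log2 difference was -0.59 for coding sequences up to 500 bases (702 genes), -0.39 for those over 500 and up to 1000 (2130 genes), -0.10 for those up to 2000 (3809 genes), 0.27 for those up to 4000 (2498 genes) and 0.83 above 4000 (839 genes). The matching cytoplasmic medians were -0.06, 0.09, 0.08, 0.05 and -0.02. Called genes followed the same order: 9.40% higher and 37.6% lower in the shortest class, against 51.1% higher and 9.18% lower in the longest. Each of the 4 pairs of 1 H69M and 1 H69 library gave a negative median in the shortest class (-0.82 to -0.36) and a positive one in the longest (0.67 to 0.94).

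Within a line, the median polysomal minus cytoplasmic log2 level of same-numbered libraries was -0.50 and -0.46 in H69M, against -0.17 and 0.21 in H69, for the shortest class. The labels do not state that libraries of the same number are pairs. For the longest class it was 0.46 and 0.55 in H69M, against -0.35 and -0.47 in H69. The longest class was thus the highest of the 5 in both H69M libraries and the lowest of the 5 in both H69 libraries. Ribosomal protein genes (median coding length 456 bases in the small and 475.5 in the large subunit) and oxidative phosphorylation genes (511.5 bases) lie in the short classes, and laminins and collagens (5097 bases) and integrins (3147 bases) in the long ones. Spearman's rho between coding length and log2 difference across these genes, which are not independent replicates, was 0.293 for polysomal RNA, 0.006 for cytoplasmic RNA and 0.552 for the polysomal minus cytoplasmic difference. Differences in where the gradients were cut, in RNA integrity or in library preparation were not tested.

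**Figure D4:**
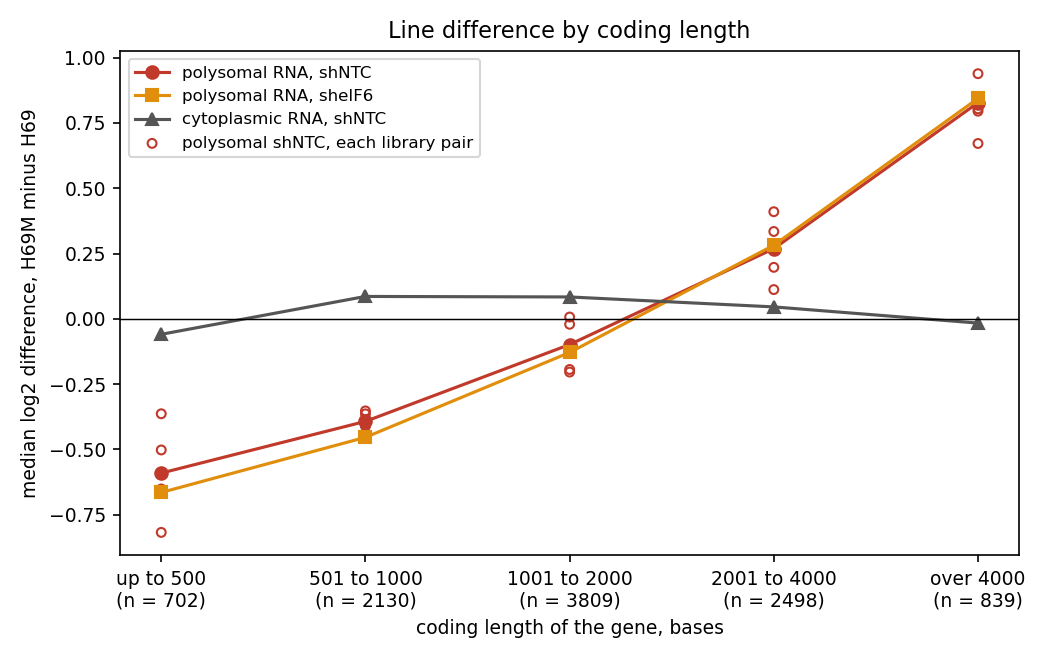
Median log2 difference of H69M minus H69 in 5 classes of coding length, for control polysomal, sheIF6 polysomal and control cytoplasmic RNA, with open circles for each pair of control polysomal libraries. The polysomal medians run between -0.59 and 0.83 for control cells, while the cytoplasmic medians stay between -0.06 and 0.09.

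The sheIF6 cells give the same line comparison in 4 other polysomal libraries. EIF6 itself had 86.3 and 136 CPM there in H69M and 234 and 219.8 CPM in H69, against the 323 and 202 CPM of control H69M and 424 and 389 CPM of control H69. In the sheIF6 cells 4383 genes (19%) were higher and 3988 (17.3%) lower in H69M. Of the genes called in control cells, 3431 were also higher (80.7% of those in control and 78.3% of those in sheIF6 cells) and 2854 also lower (79.1% and 71.6%), while 2 were higher in control and lower in sheIF6 cells and 3 the other way round. COL1A1 had a log2 difference of 12.21 in the sheIF6 libraries, KRT17 12.99, HES6 -3.62, PROX1 -5.77 and CHGB -3.98, against 12.93, 14.24, -3.47, -3.76 and -4.47 in control cells. Other values were further apart, without a call in the direct test. C1orf61 had a log2 difference of -0.61 (adjusted p = 0.527) in sheIF6 cells, against -7.21 in control cells, and KANK4 one of -1.65 (adjusted p = 0.0435), where control H69M had no count. The median of the epithelial list was -1.15 in sheIF6 cells, against 0.93 in control cells, and that of the stress response list -0.09, against 1.17. The length classes had medians of -0.67, -0.45, -0.13, 0.28 and 0.84 from short to long. A direct test of the line difference in sheIF6 against that in control cells called 1 gene higher (0.00433%) and none lower (0%), with 1175 genes at an unadjusted p under 0.05. That gene was HMCN1, which codes for the matrix protein hemicentin.

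By position, chromosome 8 stood apart. The 360 expressed genes there had a median polysomal log2 difference of -0.72, with 41.1% lower and 14.4% higher in H69M, against a median of -0.06 with 22.3% lower and 23.2% higher over all expressed protein-coding genes. Leaving out each control polysomal library in turn gave medians of -0.89 to -0.46. The chromosome's median was -0.70 in cytoplasmic RNA and -0.92 in polysomal RNA of sheIF6 cells. Chromosome 22 followed, with a median of -0.53 over 232 genes (40.1% lower and 13.8% higher), -0.52 in cytoplasmic RNA and -0.59 in sheIF6 polysomal RNA. Of 199 windows of 10 Mb with at least 20 expressed genes, 17 had a median under -0.5, and 7 of those were among the 9 windows of chromosome 8. Genes named above lie on chromosome 8 on both sides. For example, RPL8 and STMN2 were lower in H69M, while MYC and NEFL were higher. The counts by gene list above, those of the translation machinery among them, were not adjusted for position. DNA copy number was not measured in these libraries, and its part in the pattern was not tested.

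**Figure D5:**
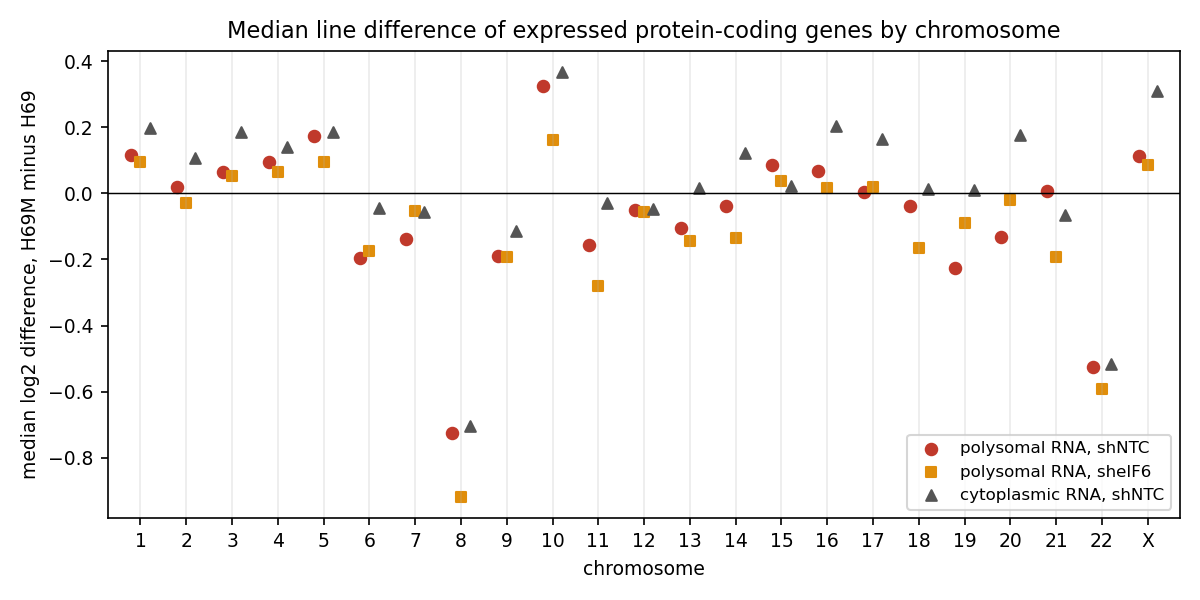
Median log2 difference of H69M minus H69 over the expressed protein-coding genes of each chromosome, for control polysomal, sheIF6 polysomal and control cytoplasmic RNA. Chromosome 8 (-0.72, -0.92 and -0.70) and chromosome 22 (-0.53, -0.59 and -0.52) lie lowest in all 3.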

How the data were processed

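Raw read counts per gene were deposited by the authors; reads were aligned with STAR and counted with HTSeq on GRCh38, per the submitters' processing notes. Versions, annotation release and strand setting are not given in the sources used here, so reads of overlapping or antisense genes cannot be told apart. The cells were small cell lung cancer lines made stable with lentiviral shRNA, per the labels' protocols. Polysomal RNA came from sucrose gradient fractions and cytoplasmic RNA from hypotonic lysates, and libraries were made with NEBNext Ultra reagents, per the same protocols.

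All 16 libraries (36005326 to 87269772 counts) were fitted in edgeR 4.0.16 (R 4.3.3) with 1 mean per group, TMM scaling, a low-count filter (minimum count 10) and the robust quasi-likelihood test with 8 residual degrees of freedom. The contrast of interest was H69M minus H69 in control polysomal RNA. P-values were adjusted by the Benjamini-Hochberg method over all 23100 genes, and calls were made at 0.05. CPM values are TMM-scaled and not divided by length, so beyond the ranking of genes by difference in CPM, levels of different genes are not compared. A group without a count was set at 3 counts in all (0.0378 CPM in H69M, 0.0383 CPM in H69) for a lower bound on a fold, and groups with 1 to 3 counts have an exact 95% counting interval, which covers counting error only. The fit was also run on simulated counts with a common spread for every gene. That setting leaves out the gene-to-gene differences in spread of these libraries, so no support for the calls is drawn from it.

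Genes were named by rule. Rankings gave the 12 called genes per direction with the largest fold of means and with the largest difference in CPM. Only protein-coding genes were ranked. To be ranked by fold, a gene also needed libraries of the lines that did not overlap. Its higher line had to average 100 or more raw counts per library. The other rules were a panel of known state genes, and up to 5 called members per list and direction plus any against the list's majority. The gene lists, the panel and the comparison were chosen with earlier results of these data known, and further list members were named after their values were seen. Some genes of the panel and lists are left unnamed. Coding lengths and coordinates are from GENCODE version 29 on GRCh38, of which 16402 genes tested matched 1 gene by symbol. Alternatives were RLE and total scaling, other filters, fewer libraries, a replicate block, a fold threshold, DESeq2 1.42.0, limma-voom (limma 3.58.1) and leaving out each library.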

Additional observations from a re-analysis of the deposited data

Results flagged for a closer look

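HMCN1, which codes for the matrix protein hemicentin, was the 1 gene whose line difference in polysomal RNA itself differed between sheIF6 and control cells by a test of that difference. It had 135 and 139 CPM in H69M and 0.0505 and 0.0731 CPM in H69 with sheIF6, against 94.6 and 70.2 CPM in H69M and 2.00 and 2.18 CPM in H69 with the control shRNA. The difference of the log2 differences was 5.75 (adjusted p = 0.0139, edgeR quasi-likelihood test over 23100 genes). Both H69 sheIF6 libraries were below both H69 control libraries, and both H69M sheIF6 libraries above both H69M control libraries.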

How the results depend on the processing

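The number of genes called in polysomal RNA of control cells stayed within 1.5 times of 4251 higher and 3608 lower under RLE scaling (4275 and 3524), total-size scaling (3927 and 3906), no filter (3773 and 3073), a stricter filter (4019 and 3583), DESeq2 (4743 and 4113) and limma-voom (4387 and 3952). With the 8 polysomal libraries alone 2370 were lower, with the 4 control polysomal libraries alone 2768 were higher and 1587 lower, and with a test against a fold threshold of 1 log2 unit 2428 were higher and 1349 lower (2497 and 1610 in sheIF6 cells); fewer libraries leave fewer residual degrees of freedom. Leaving out each library in turn gave 2966 to 4157 higher and 2126 to 3590 lower in control cells, the fewest lower without H69M replicate 1, and 2932 to 4426 higher and 1945 to 4179 lower in sheIF6 cells. For the polysomal minus cytoplasmic difference, 0 were called in either direction, but 1 lower without the filter, 147 higher and 47 lower by DESeq2, and 0 to 5 higher and 0 to 3 lower on leaving out 1 library.

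Replicate numbers did not pair the lines: deviations of same-numbered libraries correlated at -0.28 to 0.0804 between H69M and H69. Within a line they correlated at 0.0661 to 0.775 in H69M and 0.34 to 0.62 in H69, a hint from the data and not from the labels. With a replicate block over all groups 4304 genes were higher and 3889 lower. With a replicate block inside each line 4953 were higher and 4648 lower, and 7 higher and 2 lower for the polysomal minus cytoplasmic difference. The median of the glycolysis list was -0.17 and -0.18 with the 2 kinds of block and -0.17 by limma-voom, against 0.04.

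Other signs turned for lists and genes near 0 or with H69M libraries far apart, and the cause was not tested. On leaving out 1 library, list medians ran between -0.70 and 0.32 for the transition factors, -0.32 and 2.21 for ERK targets, -0.12 and 1.05 for AP-1, -0.82 and 0.56 for glycolysis, -0.38 and 1.90 for the stress response, -0.99 and 1.00 for mitochondrially encoded mRNAs and -1.59 and 0.29 for airway markers. Without the H69M libraries numbered 2 (chosen after seeing the data) they were 0.32 for the transition factors, -0.99 for mitochondrially encoded mRNAs and 0.29 for airway markers. Of single genes, none of them called, ATF4 ran between -0.38 and 1.90, ASNS -2.14 and 1.47, CA9 -5.40 and 1.58, GDF15 -1.67 and 3.15, KIT -1.83 and 0.12, TRIB3 -0.20 and 4.55, SCG2 -0.75 and 0.57, PAM -0.10 and 0.59, and MT-CO1 -0.93 and 1.45 on leaving out 1 library. With a block, CA9 was at -0.35 and -1.18, SCG2 at -0.0041 and -0.0292 and ASNS at -0.0746, and by limma-voom CA9 was at -1.87, SCG2 at -0.0700 and ASNS at -0.33. Without the libraries numbered 2, PAM was at -0.10 and MT-CO1 at -0.93. With 2 libraries a group, 8 residual degrees of freedom and replicates that differ beyond counting, small differences could not be called.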
